A study of Mus musculus with 6 samples.

Results

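The proliferin genes Prl2c2, Prl2c3 and Prl2c5 are 3 of the 54886 genes listed in RNA sequencing of GC-2spd cells. They were matched by GENCODE M21 names to the gene identifiers of the files, and they were chosen by their FPKM in the PM2.5 group against the control group, with earlier results of this contrast known. Their levels in that contrast are therefore described, and no p-value is given for them. GC-2spd is an immortalised cell line derived from mouse spermatocytes, with a BALB/c strain background. The control group (3 libraries) was untreated and kept in normal culture medium, to which the methods of the study add PBS, and the PM2.5 group (3 libraries) received fine particulate matter at 100 μg/mL for 48 h. According to the methods of the study, the particulate was a reference material collected in an urban area. All 6 libraries came from this single line, and while the methods of the study speak in general of repeated experiments, no source used here ties the 3 libraries of a group to separate cultures. Every p-value below therefore measures only the spread between these libraries, which may be technical.

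Proliferins are secreted glycoproteins of the prolactin family. In the mouse they are made by trophoblast giant cells of the placenta, where they act on blood vessels, and they were first found as transcripts that serum and growth factors induce in proliferating cultured cells. They bind the IGF2/mannose 6-phosphate receptor, and a proliferin promoter is a classical example of a composite element read by AP-1 and the glucocorticoid receptor. The question here was whether the higher level after PM2.5 was shared by all the paralogs, whose transcripts are close to identical.

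On the GRCm38 build, the 3 genes lie on chromosome 13. Prl2c3 (ENSMUSG00000056457, chr13:12790816-12800079, minus strand) and Prl2c2 (ENSMUSG00000079092, chr13:12996125-13005383, minus strand) are separated by 196 kb. Prl2c5 (ENSMUSG00000055360, chr13:13182715-13191923, plus strand) lies 177 kb beyond Prl2c2 and is read in the opposite direction. Each gene has 5 coding exons. The coding sequences of Prl2c2 and Prl2c3 differed at 3 of 672 bases (99.6% identity), with 1 difference each in exons 1, 2 and 4 and none in exons 3 and 5. Prl2c5 stood further away, with 20 differences to Prl2c2 over 666 aligned bases (97.0% identity) and 21 to Prl2c3 (96.8%). Its coding sequence of 666 bases lacked 6 bases that the other two hold in exon 5.

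Exon 4 shows how little separates the members. The sequences below are the whole exon of 183 bases on the coding strand, from the transcripts of GENCODE M21 on GRCm38. Capitals mark the 6 bases at which the 3 genes are not all the same. At 1 of these bases Prl2c2 stands alone, and at the other 5 Prl2c5 stands alone.
Prl2c2 exon 4 (chr13:12997285-12997467, minus strand): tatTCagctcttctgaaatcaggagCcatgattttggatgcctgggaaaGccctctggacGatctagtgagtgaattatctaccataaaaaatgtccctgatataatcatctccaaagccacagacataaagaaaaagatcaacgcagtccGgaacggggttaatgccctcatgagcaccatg
Prl2c3 exon 4 (chr13:12791992-12792174, minus strand): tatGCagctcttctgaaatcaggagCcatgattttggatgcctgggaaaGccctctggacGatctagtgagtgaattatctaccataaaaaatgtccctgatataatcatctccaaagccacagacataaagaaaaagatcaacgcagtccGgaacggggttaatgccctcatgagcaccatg
Prl2c5 exon 4 (chr13:13190586-13190768, plus strand): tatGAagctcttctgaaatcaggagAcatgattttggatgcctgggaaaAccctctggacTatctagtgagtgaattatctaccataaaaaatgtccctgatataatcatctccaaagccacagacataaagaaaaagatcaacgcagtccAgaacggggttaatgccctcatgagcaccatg

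The reads were 150 bases long and paired, so each main transcript was cut into all its windows of 150 bases and each window was compared with the annotated transcripts of the other genes. Of 693 windows of Prl2c2, 353 (50.9%) were identical to a window of Prl2c3, and the other 340 differed from their closest match by 1 or 2 bases. That closest match was in Prl2c3 for all 693 windows. Of 708 windows of Prl2c3, 353 were identical to Prl2c2, 340 differed by 1 or 2 bases, and 15 differed by 3 or more. These 15 lay at its ends and reached past the annotated ends of Prl2c2, whose main transcript has 842 bases against 857. Prl2c5 had 695 windows, of which 0 were identical to another gene, 94 differed by 1 or 2 bases and 601 (86.5%) differed by 3 or more. Over all annotated transcripts of the genes, 41.5% of the distinct 150-base sequences of Prl2c2, 36.3% of those of Prl2c3 and 0% of those of Prl2c5 also occurred in another gene. A read of Prl2c5 could thus be told from the others at most positions. A read of Prl2c2 could be told from Prl2c3 through 1 or 2 bases in 340 of 693 windows, and not at all in the other 353. A window stands for a single read, and the mate of the pair was not considered. How reads with several matches were treated is not given in the sources used here, and the annotated sequences are those of the reference strain and not of BALB/c. The split of reads between Prl2c2 and Prl2c3 is therefore uncertain, and its part in the values was not tested.

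**Figure D1:**
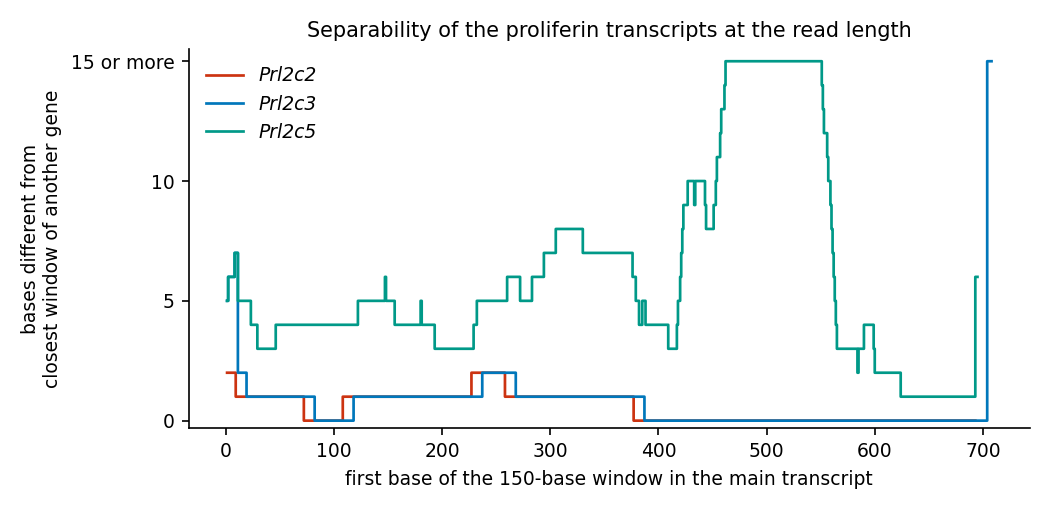
Number of bases by which each 150-base window of the main transcript (x axis, first base of the window) differs from the closest window of any other annotated gene (y axis, in bases, drawn at 15 where it was 15 or more). Prl2c2 (red) never exceeds 2 differences, and Prl2c5 (green) differs by 3 or more in 601 of 695 windows. Prl2c3 (blue) exceeds 2 only in 15 windows at its ends, which reach past the annotated ends of Prl2c2.

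FPKM (fragments per kilobase of exon, scaled to depth) is the deposited unit, and the step between low values gave back the whole reads behind it. The libraries held between 16209352 and 18003201 such reads. Control replicate 2 stood apart from the others: across genes its log2(FPKM + 1) had a Pearson's r of 0.742 and 0.745 with the other control libraries, which had 0.992 with each other, and 14.5% of its reads were mitochondrial against 1.65% to 1.95% elsewhere. The main values that rest on it are also given without it.

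Prl2c2 carried nearly all of the signal of the 3 members. In the control group it had 41, 2 and 26 reads in replicates 1 to 3, and in the PM2.5 group 535, 702 and 715 reads. As FPKM these were 2.03, 0.141 and 1.32 in the control group and 27.5, 36.3 and 36.3 in the PM2.5 group. Every exposed library was above every control library, and the lowest exposed value was 13.6 times the highest control value. Control replicate 2, which stood apart in other ways, was the lowest of all 6 and held 2 reads, under the detection floor of 3 reads. The mean FPKM was 1.16 ± 0.953 in the control group and 33.4 ± 5.10 in the PM2.5 group (SD, n = 3 each), a fold of 28.7. It was 19.9 without control replicate 2 and 45.6 without control replicate 1, the highest control library, so the size of the fold depended on the few control reads. From the pooled reads (69 against 1952) the ratio was 26.1 with an exact binomial 95% interval of 20.5 to 33.7, which covers counting error only. The difference was 4.09 (SE 0.39) as log2(FPKM + 1), a scale that understates the change of a gene this low in the controls. In order of FPKM among all genes listed, Prl2c2 ranked 10109, 16110 and 11044 without exposure and 2077, 1546 and 1508 after exposure. In bulk RNA, more cells that express the gene and more transcript per cell cannot be told apart.

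Prl2c3 was low in every library. It had 2, 0 and 7 reads in the control group and 10, 10 and 24 reads in the PM2.5 group, or 0.0792, 0 and 0.285 FPKM against 0.412, 0.414 and 0.977 FPKM. The groups did not overlap, but the lowest exposed value was only 1.44 times the highest control value. The mean FPKM was 0.122 ± 0.147 against 0.601 ± 0.325 (SD, n = 3 each), a fold of 4.94, and the difference on the log2(FPKM + 1) scale was 0.50. Control replicate 3 held 7 of the 9 control reads, and without it the fold was 15.2, while without control replicate 2 it was 3.29. The ratio of the pooled reads was 4.51, with an exact binomial 95% interval of 2.17 to 10.5. This interval covers counting error only and takes every read as rightly assigned. The reads of Prl2c3 in the PM2.5 libraries were 1.83%, 1.40% and 3.24% of the summed reads of the members. Whether some of them came from Prl2c2 was not tested, so a rise of Prl2c3 itself is uncertain. With a mean of 0.361 FPKM over the 6 libraries, Prl2c3 did not pass the filter of a mean FPKM of at least 1 and was not part of the fit across genes.

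Prl2c5 was at or under the floor in all libraries. No read was assigned to it in any control library, and 0, 2 and 2 reads in the PM2.5 libraries. The floor of 3 reads corresponds to between 0.137 and 0.196 FPKM for this gene, so no fold is given, and a difference was not detectable at this depth. The groups overlapped at 0.

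Groups therefore did not overlap for 2 of the 3 members, Prl2c2 and Prl2c3. Among the 20371 genes with at least 3 reads in any library, all exposed libraries lay above all control libraries in 7.23%. The members were chosen for this contrast, so nothing follows from their count.

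**Figure D2:**
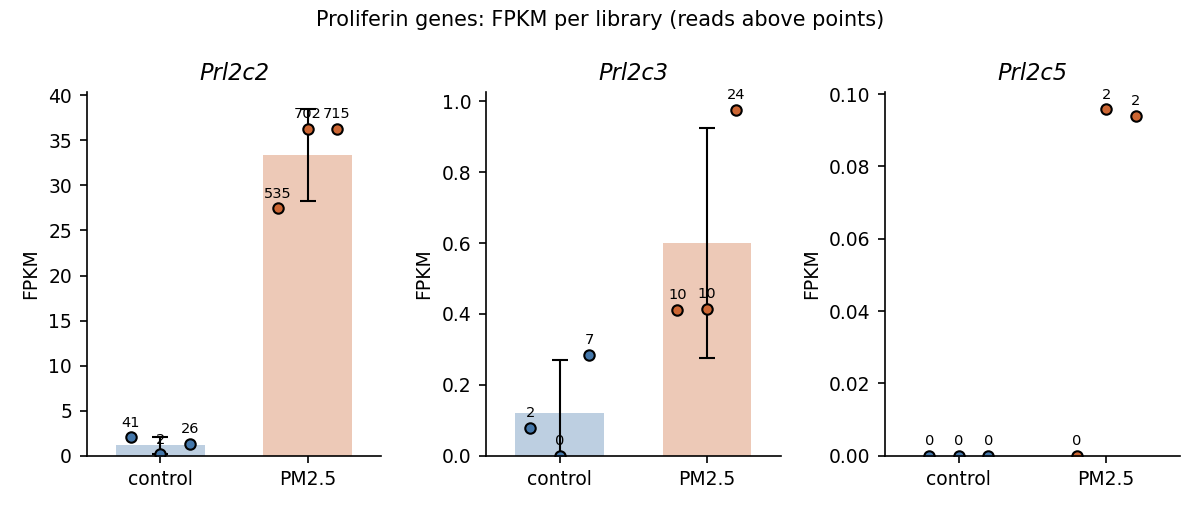
FPKM of Prl2c2, Prl2c3 and Prl2c5 (y axes, each with its own scale) in the 3 control and 3 PM2.5 libraries, drawn as points with the number of reads above each. Bars are group means with SD, cut at 0 and left out for Prl2c5, whose libraries are all at or under 2 reads. Prl2c2 lies between 27.5 and 36.3 in the PM2.5 group and at or under 2.03 in the control group.

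As reads could be exchanged between near-identical genes, the members were also summed. Summed, they had 2.11, 0.141 and 1.61 FPKM in the control group and 27.9, 36.8 and 37.4 FPKM in the PM2.5 group, with no overlap. The group means were 1.29 ± 1.02 and 34.0 ± 5.32 (SD, n = 3 each), a fold of 26.5, which leaving out single libraries moved between 18.3 and 38.9. Because the members differ in exon length, a read counts for slightly more FPKM in Prl2c2 than in Prl2c3. The summed reads do not depend on which member a read was given to, except for reads left out because they had several matches. They were 43, 2 and 33 in the control group and 545, 714 and 741 in the PM2.5 group, a fold of 26.4 as reads scaled to the library totals.

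Prl2c2 made up 98.5%, 98.6% and 97.1% of the summed FPKM in the PM2.5 libraries (mean 98.1% ± 0.829, SD, n = 3). In the control libraries it made up 96.2%, 100% and 82.3%, of which the 100% rests on 2 reads. Prl2c3 took 1.83%, 1.40% and 3.24% of the summed reads in the PM2.5 libraries. Its 7 of 33 reads in control replicate 3 were 21.2%, with a Clopper-Pearson 95% interval of 8.98% to 38.9%. In control replicate 1 its share was 4.65% (interval 0.568% to 15.8%), which overlaps the PM2.5 libraries.

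Reads were also set against the sequence that no other gene shares. Per 100 distinct 150-base sequences unique to the gene, Prl2c2 had 80.8, 106 and 108 reads in the PM2.5 libraries. Prl2c3 had 1.21, 1.21 and 2.91, and Prl2c5 had 0, 0.178 and 0.178. On this measure the mean share of Prl2c2 in the PM2.5 group was 98.2%. The unique sequence is nearly the same share of the exon length in Prl2c2 and Prl2c3, so this measure repeats the FPKM for them and is no separate check. These are all reads of each gene over its unique length, since the files do not say where in a gene a read lay.

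The region before the start of transcription was compared where the RefSeq promoter table (GRCm38.p6) held it, which was the case for Prl2c3 and Prl2c5, the low members. Aligned over their 250 bases, the sequences were identical at 241 positions, with 8 mismatches and 2 gap bases. They are shown because they differ in exact matches to the AP-1 motif. No window of Prl2c2 was available. Capitals mark a match to the AP-1 motif TGANTCA (searched on both strands) and to the TATA motif TATATAA (searched on the coding strand).
Prl2c3 promoter (chr13:12800080-12800329, minus strand): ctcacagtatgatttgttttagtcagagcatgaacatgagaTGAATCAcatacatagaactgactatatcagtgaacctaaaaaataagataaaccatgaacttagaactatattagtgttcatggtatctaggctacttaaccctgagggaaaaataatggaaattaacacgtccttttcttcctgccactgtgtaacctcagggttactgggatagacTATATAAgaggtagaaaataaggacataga
Prl2c5 promoter (chr13:13182466-13182715, plus strand): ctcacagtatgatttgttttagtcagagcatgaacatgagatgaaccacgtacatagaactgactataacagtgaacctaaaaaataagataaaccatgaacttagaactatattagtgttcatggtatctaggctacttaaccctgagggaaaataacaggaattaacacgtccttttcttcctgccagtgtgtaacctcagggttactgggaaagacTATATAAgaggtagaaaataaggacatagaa
The TATA motif began 30 bases before the start in Prl2c3 and 31 in Prl2c5, and 2.05% of all 32851 promoter windows held it. The window of Prl2c5 ends on the first base of its GENCODE exon, and that of Prl2c3 just before its exon. The values of 30 and 31 thus differ through the annotated starts and not through the bases between motif and start. The AP-1 motif began 209 bases before the start of Prl2c3 and had no match in the window of Prl2c5. Of all windows, 6.75% held it. Neither window held the core of the xenobiotic response element, GCGTG, which 28.2% of windows held, or the glucocorticoid response half-site TGTTCT, which 16.1% held (both strands for each). These matches are letters in a window and not binding sites. Only exact matches were searched, so variants of a motif, which both windows may share, were not counted.

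The rest of the family was almost silent. Of 25 other prolactin and growth hormone family genes, 24 were found in the files, and 17 of these had 0 reads in all 6 libraries. The gene not found was Prl2c4, a further gene of the Prl2c name. Whether any reads given to the members came from it was not tested. A further 5 had at most 2 reads in any library, among them Prl2c1, the closest coding relative of Prl2c5 in 255 of its windows, with 1 read in PM2.5 replicate 3. Prl7a1, a placental member, had 4, 1 and 4 reads in the control group and 2, 1 and 5 in the PM2.5 group. Prl7a2 had 0, 0 and 0 against 1, 3 and 1. None of the 24 passed the filter, so none was tested. Prolactin itself (Prl) had 1 read in 1 control library, and growth hormone (Gh) had none.

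For the genes around the proliferins in the pathway, limma was run on log2(FPKM + 1) over the 11884 genes that passed the filter. A gene was called where its log2 fold change was beyond 1 in either direction with a p-value under 0.05 after Benjamini-Hochberg adjustment. This held for 0.0926% of the genes tested (11 genes), with 0.0337% higher in PM2.5 (4 genes) and 0.0589% lower (7 genes). Prl2c2, the only member that passed the filter, is among those called higher. As it was chosen for this contrast, nothing follows from its call. All PM2.5 libraries lay above all control libraries in 8.35% of the genes tested, and below them in 6.85%. The median log2 fold change over all genes was 0.02. An unadjusted p under 0.05 was found in 451 genes (3.80%), and in 1885 (15.9%) without control replicate 2.

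Receptors and signal transduction genes were expressed but not called. Of 16 genes, 14 were tested, 0 were called and 2 had an unadjusted p under 0.05 in limma, or 4 without control replicate 2. The groups did not overlap in 4 of the 14, all lower in PM2.5, while 7 had a positive log2 fold change and the median was -0.03, or 0.08 with scaling to the library totals, under which all genes had 0.13. Igf2r, which encodes the IGF2/mannose 6-phosphate receptor that binds proliferin, had 20.0, 5.23 and 19.2 FPKM in the control group and 22.0, 21.0 and 17.9 FPKM in the PM2.5 group. Control replicate 2 alone was low, and the other 5 libraries overlapped. Its log2 fold change was 0.62 (SE 0.50), and 0.05 (SE 0.12) without control replicate 2. Prlr, the prolactin receptor, had at most 2 reads in any library. The genes with the highest mean FPKM in the list were the kinases Mapk3 (61.6 ± 8.93 against 76.3 ± 19.7, SD, n = 3 each), Map2k1 (63.8 ± 8.38 against 48.1 ± 5.04) and Map2k2 (48.5 ± 24.9 against 36.7 ± 6.82). The lowest log2 fold change was that of Socs2, an inhibitor of cytokine receptor signalling, with -1.01 (SE 0.31). The Socs2 groups did not overlap, with 2.16, 5.44 and 2.37 FPKM against 1.03, 1.01 and 1.08 FPKM, but its adjusted p in limma was 0.87. Socs2 and Stat5b, the other gene with an unadjusted p under 0.05, were named after their values were seen.

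The list of AP-1 and glucocorticoid receptor genes held the factors that are known to read the composite proliferin element. Of 11 genes, 9 were tested, 0 were called, 1 had an unadjusted p under 0.05 in limma, 4 were positive, and the median log2 fold change was -0.08. It was 0.03 with scaling to the library totals and 0.20 without control replicate 2, when 7 were positive. Jun had 16.0, 38.7 and 16.0 FPKM in the control group and 22.2, 19.8 and 13.6 in the PM2.5 group, and Junb, the member with the highest mean, 99.7, 415 and 111 against 175, 163 and 41.1. Both were highest in control replicate 2, and the groups overlapped. Fosl1, which encodes an AP-1 subunit, had 9.03, 84.5 and 13.4 FPKM against 42.8, 39.2 and 19.5 FPKM. Its log2 fold change was 0.51 (SE 0.84), and 1.46 (SE 0.38, adjusted p in limma 0.19) without control replicate 2, which held the highest value. Fos had 7.70, 26.4 and 10.5 FPKM in the control group and 5.997, 5.10 and 4.78 FPKM in the PM2.5 group, with no overlap, a log2 fold change of -1.16 (SE 0.44) and an adjusted p in limma of 0.87. It was -0.68 (SE 0.16) without control replicate 2. Nr3c1, the glucocorticoid receptor, had 17.2, 6.90 and 16.6 FPKM against 17.7, 18.8 and 22.4 FPKM, with no overlap, a log2 fold change of 0.59 (SE 0.37) and an adjusted p in limma of 0.87. Without control replicate 2, its lowest library, the log2 fold change was 0.20 (SE 0.13). Prl2c2 was at its lowest in control replicate 2, with 2 reads, under the floor. Jun, Junb, Jund, Fosl1, Fos and Atf3 were at their highest there. Nr3c1 (6.90 FPKM) and Atf2 (2.91 FPKM) were at their lowest there, as Prl2c2 was, and Fosl2 was neither. A relation of Prl2c2 to these factors was not tested.

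Secreted angiogenic factors, the class of activity for which proliferin is known, gave 7 tested genes of 13, with 0 called, 1 at an unadjusted p under 0.05 in limma, 3 positive and a median log2 fold change of -0.06, or 0.02 with scaling to the library totals. Vegfa, the main vascular growth factor, had 13.8, 12.0 and 13.1 FPKM against 16.6, 15.2 and 13.8 FPKM, with overlap and a log2 fold change of 0.21 (SE 0.18). Igf1, which encodes a growth factor, had 12.3, 37.7 and 12.0 FPKM in the control group and 3.59, 3.85 and 4.32 FPKM in the PM2.5 group. The groups did not overlap, and the log2 fold change was -1.94 (SE 0.45) with an adjusted p in limma of 0.59. Without control replicate 2 it was -1.42 (SE 0.10) with an adjusted p of 0.012, so it was called only when that library, in which Igf1 was highest, was left out. Igf2, a ligand of the same receptor as proliferin, had 0 reads in all libraries.

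**Figure D3:**
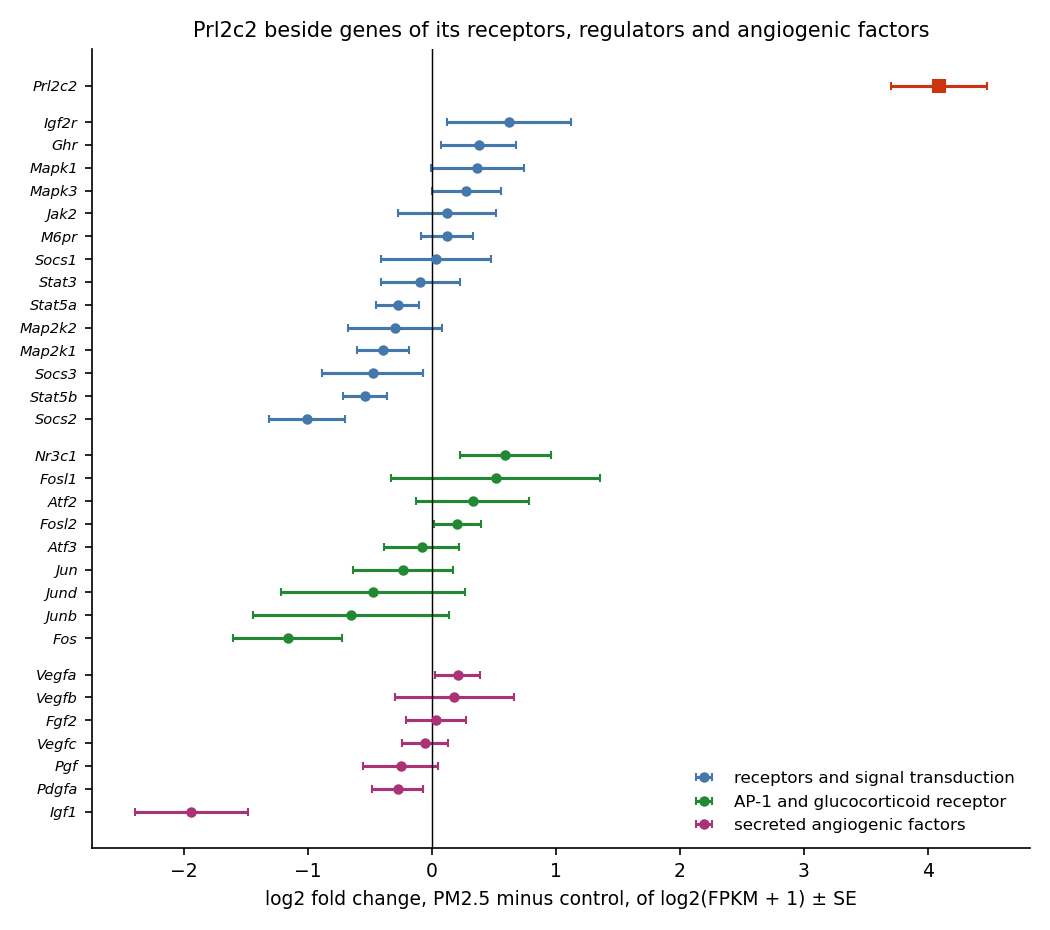
Log2 fold change of log2(FPKM + 1), PM2.5 minus control (x axis), with the standard error from limma, for Prl2c2 and the tested genes of the lists of receptors and signal transduction, AP-1 and glucocorticoid receptor, and secreted angiogenic factors. Prl2c2 lies at 4.09, and the list genes lie between -1.94 (Igf1) and 0.62 (Igf2r).

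Markers of the cells in which proliferins are usually studied were also read. Of 13 trophoblast markers, 7 had 0 reads in all libraries, among them the defining factors Hand1, Tfap2c and Cdx2 and the placental genes Tpbpa and Ctsq. Their summed level was 1.14 to 5.86 FPKM in the control group and 1.00 to 2.30 in the PM2.5 group, most of it from Gata2 and Gata3. The labelled spermatocyte origin was not visible in its markers. Of 12 spermatocyte markers, 5 had 0 reads in all libraries, 4 had at most 2 reads and none passed the filter, and their summed level was 0.452 to 2.69 FPKM in the control group and 0.0770 to 0.612 in the PM2.5 group. Sycp3, a component of the synaptonemal complex, was the highest of them, with 2.56 FPKM in control replicate 2. Of 12 testis somatic cell markers, 5 were tested and 0 were called, and their summed level was 728 to 1258 FPKM in the control group and 610 to 811 in the PM2.5 group, most of it from Vim, Col1a1 and Acta2, which many cultured cells express. The other tested markers were Gata4 and Star. Gata4 had 17.5, 14.2 and 18.2 FPKM in the control group and 22.3, 19.6 and 11.1 FPKM in the PM2.5 group. Star had 1.89, 2.49 and 1.58 FPKM against 1.62, 1.70 and 1.86 FPKM. The rest of the list did not pass the filter. The summed levels of all 3 marker lists were highest in control replicate 2, as were those of the AP-1 and angiogenic lists. Those of the other prolactin family genes (0.0679 FPKM, from few reads) were lowest there, as was Prl2c2. The genes within 500 kb of the members (47.0 FPKM) were also lowest there. The receptor list had 329 FPKM there, within the 309 to 344 FPKM of the other libraries.

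The neighbours of the proliferin genes were read to see how far the difference reached along the chromosome. Of 48 other annotated genes within 500 kb of the members (8 protein coding and 30 pseudogenes among them), 29 had 0 reads in all libraries. Between the members lie 11 of these genes, of which 9 had no read, so the genes on either side of Prl2c2 give no comparison: the pseudogene Gm48527 had none, and the lincRNA Gm48544 had 2 and 1 reads in PM2.5 libraries. The genes flanking Prl2c3, the pseudogenes Gm7042 and Gm18262, had at most 2 reads, and those flanking Prl2c5, Gm10811 and Gm18880, at most 1.

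Further out, 9 neighbours were tested and 0 were called in limma. Their log2 fold change was positive in 8 of 9 and had a median of 0.53, against 0.02 over all genes tested. Without control replicate 2 it was positive in 7 of 9 with a median of 0.27, against -0.01 over all genes. The groups did not overlap in 7 of 9, higher in 6 (all genes tested 8.35%) and lower in 1 (6.85%). At an unadjusted p under 0.05 there were 2 of 9, namely Gpr137b and Gm2423, and 5 of 9 without control replicate 2. The pseudogenes Gm2423 and Gm18562 had 2 and 0 reads in control replicate 2. Their log2 fold changes were 0.95 (SE 0.38) and 0.74 (SE 0.47). Without that library they were 0.55 (SE 0.18) and 0.24 (SE 0.25). Gpr137b, which encodes a lysosomal membrane protein, had 4.89, 2.85 and 4.78 FPKM in the control group and 8.56, 8.68 and 9.66 FPKM in the PM2.5 group, a log2 fold change of 0.97 (SE 0.23) with an adjusted p in limma of 0.58. Nid1, which encodes the basement membrane protein nidogen, had 13.2, 3.44 and 13.7 FPKM against 20.0, 21.0 and 21.1 FPKM, a log2 fold change of 1.15 (SE 0.49). Without control replicate 2 these were 0.77 (SE 0.10) for Gpr137b, with an adjusted p in limma of 0.046 but under the fold threshold, and 0.59 (SE 0.08) for Nid1. In both genes the control value was lowest in replicate 2, as in Prl2c2. On the other side, Gpr137b-ps was at 0.53 (SE 0.24), Ero1lb, a protein folding enzyme of the endoplasmic reticulum, at 0.36 (SE 0.23), and Lgals8, a galectin, at -0.31 (SE 0.18). They were at 0.31, 0.15 and -0.33 when control replicate 2 was left out. Heatr1, also on that side, was at 0.40 (SE 0.21), and at 0.27 without that library. Lyst, on the side of Gpr137b and Nid1, was at 0.06 (SE 0.19), and at -0.06 without that library. Gpr137b-ps is annotated as a pseudogene and carries the name of Gpr137b. Whether reads were exchanged between them was not tested. These neighbours were named after their values were seen. The highest log2 fold change of a tested neighbour was thus 1.15 (Nid1), against 4.09 for Prl2c2, and without control replicate 2 it was 0.77 (Gpr137b) against 3.68.

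**Figure D4:**
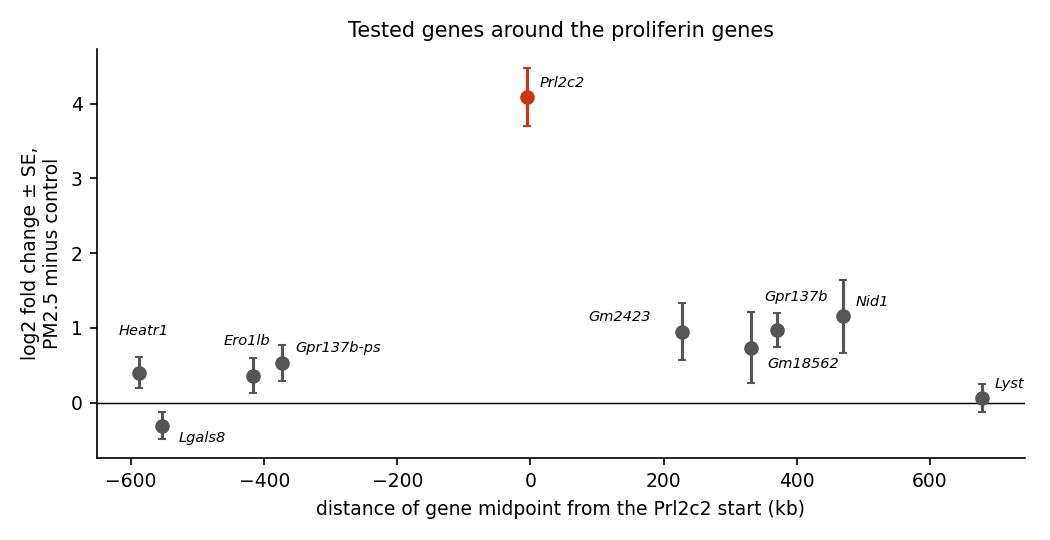
Log2 fold change of log2(FPKM + 1), PM2.5 minus control, with the standard error from limma (y axis) for Prl2c2 and the 9 tested genes whose body lies within 500 kb of the members, against the distance of the gene's midpoint from the Prl2c2 start (x axis, kb). Prl2c2 lies at 4.09, and the neighbours lie between -0.31 and 1.15.

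The genes most like Prl2c2 over the 6 libraries were Gm12264, Mfsd1, Slc22a23, Eif3a and Xdh, with a Pearson's r of log2(FPKM + 1) of 0.995, 0.993, 0.993, 0.991 and 0.990. These values describe 6 points that fall into 2 groups, and they share libraries, depth and scaling. Without control replicate 2 the 5 values of r were between 0.985 and 0.995. This alternative was added after seeing the data and was run only for these already chosen genes. All 5 were lowest in control replicate 2 and higher in every PM2.5 library than in any control library, as were 8.35% of all genes tested for the latter. They were picked for likeness to Prl2c2, which has this pattern, so nothing follows from it. Slc22a23, a solute carrier gene, had 2.61, 1.45 and 2.54 FPKM in the control group and 8.27, 8.63 and 7.40 FPKM in the PM2.5 group, a log2 fold change of 1.53 (SE 0.22). Xdh, which encodes xanthine dehydrogenase, the enzyme that makes uric acid, had 4.45, 2.39 and 4.28 FPKM against 18.1, 17.3 and 14.9 FPKM, a log2 fold change of 1.95 (SE 0.25). Mfsd1, a lysosomal transporter, had a mean of 41.1 ± 6.15 FPKM against 76.7 ± 3.05 (SD, n = 3 each), and Eif3a, a translation initiation factor subunit, 84.2 ± 3.71 against 111 ± 2.22. Gm12264, annotated as antisense, had 0.591 ± 0.149 FPKM against 1.68 ± 0.103, and without a stated strand setting its reads and those of its partner cannot be told apart.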

How the data were processed

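RNA was measured in 6 libraries of GC-2spd cells, grouped by the sample labels. According to the submitters' processing notes and the methods of the study, reads of 150 bases were mapped with HISAT2 2.0.5 and counted with featureCounts 1.5.0-p3. The authors deposited the values as FPKM and called differential expression with DESeq2. How reads with several matches and the strand were handled is not given in the sources used here. The processing notes list the mm9 build, while the lengths of GENCODE M21 (GRCm38), used here for lengths and positions, gave whole reads (within 0.05) for 98.1% to 98.4% of values under 50 reads. The worth of 1 read moved with size factors computed as medians of ratios, which were 0.755 for control replicate 2 and 1.04 to 1.09 elsewhere, so the deposited values were already scaled between libraries and were not scaled again.

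The design had named a count test for counts and limma for FPKM, and limma was used: version 3.58.1 with trend and robust options (statmod 1.5.0, R 4.3.3), on log2(FPKM + 1) where the mean FPKM reached 1, with no covariates. The fit was run on simulated data with a common SD for all genes, taken without control replicate 2. That run does not show how the fit behaves with that library. P-values were adjusted over all genes tested by the Benjamini-Hochberg method. Shared sequence was searched in annotated transcripts only. Intervals are exact 95% binomial intervals and, like the floor of 3 reads, cover counting error only. Prl2c4 was not matched to a gene of the files. Tables were handled with numpy 2.4.6, pandas 2.3.3 and scipy 1.17.1, and figures drawn with matplotlib 3.10.9.

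Genes named are the members, list genes that were called, that had the highest level of their list or that matter for their role, family genes with at least 3 reads, the 5 genes most like Prl2c2 and the neighbours on each side. Other names were chosen after their values were seen. The members and lists were chosen with earlier results of these data known. Alternatives changed the pseudocount, filter, scaling, fold threshold, replicate block, effective length and tool, or left out each library in turn.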

Additional observations from a re-analysis of the deposited data

How the results depend on the processing

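The log2 fold change of Prl2c2 (4.09) was 5.20 with a pseudocount of 0.1 and that of Prl2c3 (0.50) was 1.79, by construction, as both were near 0 in the control group. Their other scalings stayed within 1 SD. Leaving out single libraries gave 3.68 to 4.39 for Prl2c2, 0.34 to 0.61 for Prl2c3, 18.3 to 38.9 for the fold of the summed members (26.5), and 97.8% to 98.6% for the share of Prl2c2 (98.1%). No alternative was run for the log2 fold change of Prl2c5, as both groups are at or under the floor. Of all genes tested, 11 were called in limma. The count was 0 without a filter (875 genes at an unadjusted p under 0.05), 1 with at least 10 reads in every library (527), 6 with scaling to the library totals (432) and 0 with voom on the recovered reads (403). It was 0 to 84 when single libraries were left out, with 84 without control replicate 2 and 0 without any other (197 to 627 genes at an unadjusted p under 0.05). The cause was not tested. Scaling to library totals moved the median log2 fold change of all genes from 0.02 to 0.13. In the other lists 0 genes were called, and 0 to 1 when single libraries were left out, where the 1 was Igf1 without control replicate 2. With the replicate number as a block, 0 genes were called over all genes (335 at an unadjusted p under 0.05), while the log2 fold change of Prl2c2 (4.09) cannot change under a block in this balanced design. Deviations of same-numbered libraries correlated at -0.285, 0.181 and 0.253, and those of differently numbered libraries at -0.280 to 0.292. With 3 libraries in each group these values depend on each other. They cannot tell whether same-numbered libraries share a culture or a batch.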
